A study of Homo sapiens with 4 samples.

Results

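The 140 genes described here carry a ZNF symbol of the form ZNF plus a number, lie off chromosome 19, are annotated as protein-coding, and had at least 100 counts summed over the 4 libraries. They were drawn from 61543 genes. Without the count minimum, 258 genes off chromosome 19 carry such a symbol, so 118 fell below it. The minimum used the counts of both groups, and 93.8% of the members' counts came from the EPN24-Cas13d libraries, so a message abundant in those libraries passed more easily. The last members inside the minimum were ZNF639 with 100 and ZNF26 with 102 counts, and the first genes outside it were ZNF92 and ZNF706 with 99 counts each.

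RNA was sequenced from the culture supernatant of HEK293T cells, a human embryonic kidney line, that released EPN24 nanocages, protein shells that leave the cell with what they enclose. In 1 group (EPN24-Cas13d) EPN24 was fused to Cas13d, an RNA-binding CRISPR protein, and in the other (EPN24) the shell protein carried no Cas13d. Each group had 2 libraries. The comparison addresses which RNAs leave the cell with Cas13d. The libraries were made from total RNA of 200 µl of cleared supernatant to which synthetic ERCC RNA had been added, so RNA inside and outside the shells was measured together, and more secreting cells or shells cannot be told apart from more RNA per cell or shell. The labels do not say whether the replicates were separate cultures, so the spread behind each p-value is that of these libraries and may be technical.

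Most ZNF genes encode proteins of the C2H2 class, in which a pair of cysteines and a pair of histidines hold a zinc ion and fold a short finger that reads DNA bases, or in some cases RNA. Fingers stand in tandem, and many of the proteins carry a further domain at their start. A KRAB box recruits the corepressor TRIM28, which brings in histone methyltransferases and keeps transposable elements silent. A SCAN box lets the proteins pair with each other. The largest clusters of these genes are on chromosome 19. The members lie on 20 other chromosomes and include many with no KRAB box that act in transcription, chromatin or RNA metabolism.

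The 2 ends of the members' range differed in base composition, and the stretch that encodes 1 finger shows it. The sequences below are the first finger motif lying in a single exon, from the first cysteine codon to the last histidine codon, in the GENCODE 29 coding sequence (build GRCh38, given 5′ to 3′). They are those of the 3 members with the largest and the 3 with the most negative difference between the groups, and capitals mark the codons of the 2 cysteines and 2 histidines.
ZNF853 (chr7:6622450-6622512, plus strand): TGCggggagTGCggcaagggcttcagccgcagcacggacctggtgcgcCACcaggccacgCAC
ZNF710 (chr15:90068026-90068088, plus strand): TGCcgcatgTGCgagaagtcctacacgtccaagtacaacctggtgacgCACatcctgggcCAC
ZNF512B (chr20:63966686-63966751, minus strand): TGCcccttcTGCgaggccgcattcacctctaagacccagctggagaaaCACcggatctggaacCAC
ZNF644 (chr1:90940058-90940120, minus strand): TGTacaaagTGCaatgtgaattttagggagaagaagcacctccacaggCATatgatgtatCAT
ZNF292 (chr6:87255340-87255402, plus strand): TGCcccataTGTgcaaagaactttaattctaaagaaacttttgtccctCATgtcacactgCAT
ZNF326 (chr1:90017330-90017398, plus strand): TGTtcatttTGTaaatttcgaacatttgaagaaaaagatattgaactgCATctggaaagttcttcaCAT
G and C made up 46 of 63 bases in the ZNF853 finger, 37 of 63 in that of ZNF710 and 39 of 66 in that of ZNF512B. They made up 25 of 63 in ZNF644, 24 of 63 in ZNF292 and 20 of 69 in ZNF326. All the zinc-binding codons of the first 3 are TGC or CAC, while the last 3 use TGT and CAT at most of these places.

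Together the members held a larger share of the RNA in EPN24-Cas13d supernatant. Their counts made up 1.97% and 1.95% of gene counts in the EPN24-Cas13d libraries, against 0.350% and 0.339% in the EPN24 libraries. Per ERCC count, which relates RNA to a fixed volume of supernatant, the members had 1.12 and 1.15 counts in EPN24-Cas13d. In EPN24 they had 0.0144 and 0.0128, a ratio of 83.5 between the means. Part of this ratio is not particular to the members, because all gene counts also rose against ERCC counts, as given below. As a share of gene counts, the members' ratio between the means was 5.68. Because the members were chosen on counts, these shares are a description. In gene counts, EPN24-Cas13d replicates 1 and 2 reached 5097332 and 4863449, and EPN24 replicates 1 and 2 reached 1830860 and 1903492. The added ERCC RNA made up 1.73% and 1.66% of what was counted in EPN24-Cas13d, against 19.6% and 20.9% in EPN24. A count of 3 corresponds to 0.721 and 0.755 CPM in EPN24-Cas13d and to 1.34 and 1.42 CPM in EPN24, where CPM stands for counts scaled to a common library total by TMM, which levels libraries on a trimmed mean of their genes. Of 8 HEK293T markers, all had counts in every library, with 2144 and 2148 CPM summed in EPN24-Cas13d and 347 and 370 CPM in EPN24. VIM made up most of the EPN24-Cas13d sums, at 1804 and 1820 CPM, against 125 and 157 CPM in EPN24. In the test described below, with TMM, 5 of the 8 were higher and 1 lower (NEFM, -1.42 on the log2 scale). The other 2, PAX2 (-0.71) and LHX1 (-0.50), were not called, and scaled to ERCC totals all 8 were higher. Of 5 erythroid genes (HBA1, HBA2, HBB, HBG1, HBG2) 1 and 2 were detected in the EPN24-Cas13d libraries, against 2 and 1 in the EPN24 libraries, with HBA1 at 0 throughout. The 5 hepatocyte genes (ALB, APOA1, APOB, FGB, TF) summed to 8.89 and 5.29 CPM in EPN24-Cas13d and 45.05 and 41.2 CPM in EPN24. Their part in the members' differences was not tested.

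All 140 members entered the test across genes. In the quasi-likelihood test of edgeR, Benjamini-Hochberg adjusted over 20476 genes, 90 members were higher in EPN24-Cas13d, 26 were lower and 24 were not called at an adjusted p of 0.05. Of all genes tested, 32.6% were higher and 48.2% lower, 80.9% in either direction. Both EPN24-Cas13d libraries lay above both EPN24 libraries in CPM for 97 members and below both for 31, beside 36.8% and 54.3% of all genes tested. Those 2 shares come from genes without the count minimum that the members passed, so they are no like background. For 46 of the 140 members the difference reached 3 on the log2 scale with a call, beside 10.8% of all genes. Of the 9455 protein-coding genes tested that also reached 100 summed counts, 1785 reached 3 with a call. Among those 9455 genes 59.7% were higher and 20.9% lower, near the members' 64.3% and 18.6%. The members' median log2 fold change was 2.08, beside -0.96 for all genes tested and 1.28 for those protein-coding genes. Of the 82 ZNF genes off chromosome 19 that were tested but fell below the minimum, 0 were higher and 68 lower by the same test, and DESeq2 and limma also called 0 higher there, as did an unadjusted p of 0.05 in each tool. Protein-coding genes had a like pattern: of all 15507 tested, 5744 were higher and 6645 lower with TMM. The 9455 above the minimum held 5643 of those higher and 1977 of those lower. Below the minimum, few protein-coding genes were thus higher and most were lower. That is the background for the listed genes below the minimum as well. The split among members therefore depends on the minimum, and the counts describe the members only. Without EPN24-Cas13d replicate 2, 87 members were higher and 16 lower.

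The direction of the lower members depended on what the libraries were scaled to. Scaling to ERCC totals moved the median of all genes tested by 3.34, to 2.38 on the log2 scale, and the members' median to 5.45. On that scale 131 members were higher and 0 lower, beside 58.4% and 2.33% of all genes tested (60.7% in either direction). Of protein-coding genes of at least 100 summed counts, 91.4% were higher and 0.677% lower with ERCC scaling (median 4.64), near the members' 93.6% and 0%. These shares are the background for the ERCC-scaled counts of the members' lists below. At an unadjusted p of 0.05 in edgeR, 2 members were lower with ERCC scaling, ZNF326 and ZNF644. All 90 members higher with TMM were higher with ERCC scaling, and of the 26 lower ones 17 were higher and 9 not called. In the authors' deposited table the members' log2 fold changes ran from -1.12 to 9.46 with a median of 5.43, and no value lay further than 0.0604 from the ERCC-scaled one. Below, a member called lower with TMM was a smaller share of the recovered RNA in EPN24-Cas13d, and its ERCC-scaled value stands beside it.

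ZNF853 had the largest difference among the members. It had 1065 and 1006 counts in EPN24-Cas13d, against 6 and 10 counts in EPN24, or 256 and 253 CPM in the EPN24-Cas13d libraries, against 2.68 and 4.73 CPM in the EPN24 libraries. The gene (ENSG00000236609.4, chromosome 7, 6615610 to 6624290 on the plus strand) rose with a log2 fold change of 6.10 (approximate SE 0.23) and adjusted p = 1.46e-11 by the same test. ZNF710 measured 512 and 530.3 CPM in the EPN24-Cas13d libraries, against 14.7 and 7.57 CPM in the EPN24 libraries, and rose by a log2 fold change of 5.53 (SE 0.19), while its EPN24 libraries were nearly a factor of 2 apart. Both genes had no overlap between groups, and the EPN24-Cas13d libraries agreed within a few percent. ZNF512B, a reported regulator of TGF-beta signalling (ENSG00000196700.9, chromosome 20, 63956704 to 63969930 on the minus strand), had 1008 and 1035 CPM in the EPN24-Cas13d libraries, against 29 and 26.5 CPM in the EPN24 libraries, with a log2 fold change of 5.20 (approximate SE 0.14). ZNF48, whose EPN24 libraries held only 18 and 47 counts, had 481 and 410.2 CPM in the EPN24-Cas13d libraries, against 8.03 and 22.3 CPM in the EPN24 libraries, and rose by 4.89 on the log2 scale. ZNF710, ZNF512B, ZNF48 and ZNF598 each share exon positions with a gene on the opposite strand. The strand setting of the counting is not given in the sources used here, so reads of such partners cannot be told apart, and the same holds for ZNF384, ZNF232, ZNF436 and ZNF26 below. ZNF768 shares exon positions with a gene on its own strand.

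**Figure D1:**
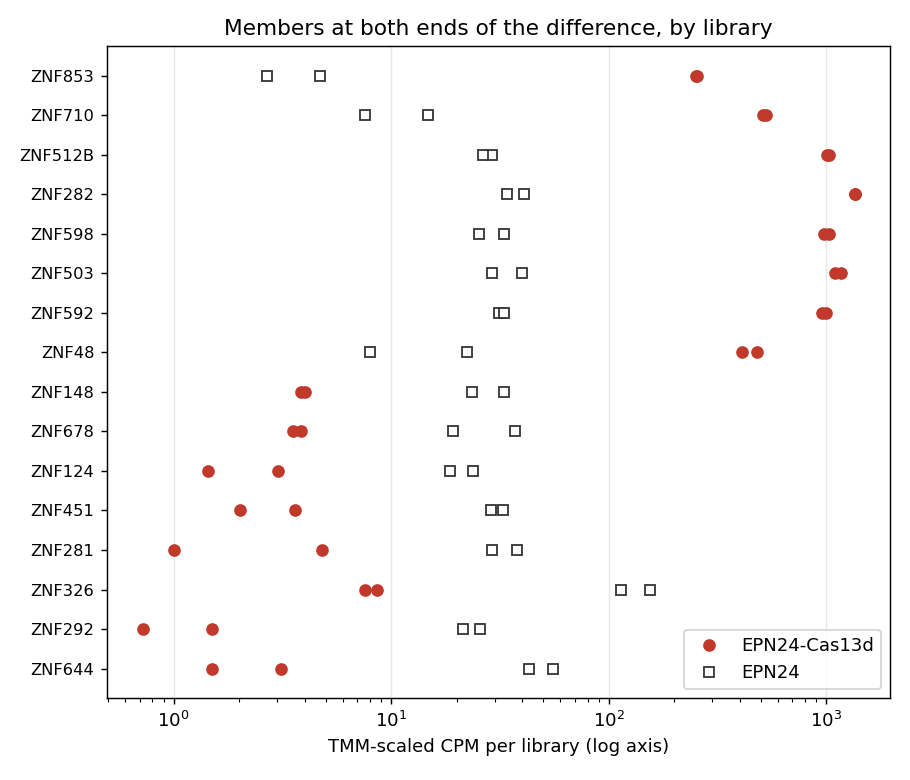
TMM-scaled CPM (log axis) in each library for the 8 members with the largest and the 8 with the most negative log2 fold change, filled circles for EPN24-Cas13d and open squares for EPN24. In the upper 8 genes the EPN24-Cas13d libraries lie right of both EPN24 libraries, from 253 CPM (ZNF853) to 1355 CPM (ZNF282), and in the lower 8 they lie left of them, below 10 CPM.

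The list of KRAB zinc finger genes holds 99 genes, of which 45 are members. Of these 45, 30 were higher, 5 lower and 10 not called, that is 66.7% higher and 11.1% lower, beside 59.7% and 20.9% of protein-coding genes above the same minimum and 32.6% and 48.2% of all genes tested. Of the 53 listed KRAB genes found below the minimum, 0 were higher, 28 lower, 11 not called and 14 not tested with TMM. With ERCC scaling 12 of the 53 were higher and 3 lower, so the shares describe the abundant KRAB messages only. The median of the 45 was 2.13 on the log2 scale, beside 1.28 for protein-coding genes above the same minimum and -0.96 for all genes tested, with a range of -3.23 to 5.17. With ERCC scaling 43 were higher and 0 lower. ZNF282, first described as a repressor that binds the long terminal repeat of the retrovirus HTLV-1 (ENSG00000170265.12, chromosome 7, 149195546 to 149226238 on the plus strand), had 1355 and 1354 CPM in the EPN24-Cas13d libraries, against 41 and 34.1 CPM in the EPN24 libraries. It rose by a log2 fold change of 5.17 (SE 0.13, adjusted p = 1.27e-12 by the same test). ZNF746, also called PARIS, a repressor of the PGC-1alpha gene that the ubiquitin ligase parkin targets, had 767 and 765 CPM in the EPN24-Cas13d libraries, against 39.7 and 44.5 CPM in the EPN24 libraries, and rose by 4.19 (SE 0.13). Its neighbour in the same chromosome 7 cluster, ZNF777, had 639 and 621 CPM in the EPN24-Cas13d libraries, against 37.9 and 28.9 CPM in the EPN24 libraries, and rose by 4.23 (SE 0.15). The EPN24-Cas13d libraries of these 3 genes differed from each other by less than 20 CPM and lay far above both EPN24 libraries.

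The 5 lower KRAB members had 102 to 151 summed counts. ZNF124 had 6 and 12 counts in EPN24-Cas13d, against 42 and 50 counts in EPN24, or 1.44 and 3.02 CPM in the EPN24-Cas13d libraries, against 18.7 and 23.7 CPM in the EPN24 libraries, and fell by 3.23 on the log2 scale with TMM (SE 0.48), against 0.12 and no call with ERCC scaling. ZNF678 had 16 and 14 counts in EPN24-Cas13d, against 43 and 78 counts in EPN24, with a log2 fold change of -2.91, against 0.47 and no call with ERCC scaling. The groups did not overlap for either gene, although the EPN24 libraries of ZNF678 were nearly a factor of 2 apart. ZNF26, the member with the second lowest summed counts, was at -1.29 with TMM (adjusted p = 0.0324 by edgeR's quasi-likelihood test), turning to 2.02 with ERCC scaling. Its TMM call rested on single libraries: it was -2.05 without EPN24-Cas13d replicate 1, and -0.71 and -0.95 with no call without EPN24-Cas13d replicate 2 and EPN24 replicate 1. ZNF436 had 8.65 and 8.56 CPM in the EPN24-Cas13d libraries, against 10.7 and 6.63 CPM in the EPN24 libraries, overlapping groups and a log2 fold change of -0.01 (SE 0.45), which was 3.32 and called higher with ERCC scaling. Without EPN24-Cas13d replicate 2 or EPN24 replicate 1, 3 KRAB members were lower in place of 5.

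Of 18 listed SCAN zinc finger genes 12 are members, and 5 were higher, 3 lower and 4 not called (41.7% higher and 25% lower, beside 59.7% and 20.9% of protein-coding genes above the same minimum and 32.6% and 48.2% of all genes tested). The 6 below the minimum were 5 lower and 1 not called with TMM, and 1 was higher and 0 lower with ERCC scaling. The members' median was 0.72 on the log2 scale, or 4.07 with 12 higher with ERCC scaling. Without EPN24-Cas13d replicate 1 or replicate 2, 1 was lower. ZNF213 and ZNF496 carry both a SCAN and a KRAB box and are counted in both lists. ZNF213 had 247 and 208 CPM in the EPN24-Cas13d libraries, against 8.03 and 11.8 CPM in the EPN24 libraries, with a log2 fold change of 4.52 (SE 0.21), and shares exon positions with ZNF213-AS1 on the other strand. ZNF496, a binding partner of the histone methyltransferase NSD1 (ENSG00000162714.13, chromosome 1, 247297412 to 247331867 on the minus strand), had 404 and 387 CPM in the EPN24-Cas13d libraries, against 16.1 and 18.9 CPM in the EPN24 libraries, with a log2 fold change of 4.50 (SE 0.16). ZNF232, another SCAN gene, had, with ZNF436, the smallest difference among members of at least 5 CPM. It had 11.1 and 8.56 CPM in the EPN24-Cas13d libraries, against 8.03 and 11.4 CPM in the EPN24 libraries, with overlapping groups, a log2 fold change of 0.02 (SE 0.42) and 3.38, called higher, with ERCC scaling.

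Of 28 listed regulators of chromatin and transcription without a KRAB box 24 are members, and 13 were higher, 9 lower and 2 not called (54.2% higher and 37.5% lower, beside 59.7% and 20.9% of protein-coding genes above the same minimum and 32.6% and 48.2% of all genes tested). The 4 below the minimum were all lower with TMM, and 1 was higher and 0 lower with ERCC scaling. The members had a median of 1.72 and a range of -4.38 to 5.05. With ERCC scaling 19 were higher, 0 lower and 5 not called. Without EPN24 replicate 1 the median was 1.22. ZNF703, a corepressor amplified in luminal breast cancers (ENSG00000183779.7, chromosome 8, 37695782 to 37700019 on the plus strand), was the most abundant member in EPN24-Cas13d, with 2108 and 2209.5 CPM in the EPN24-Cas13d libraries, against 83.4 and 100.4 CPM in the EPN24 libraries. It rose by a log2 fold change of 4.56 (SE 0.12, adjusted p = 1.27e-12 by the same test). Its paralog ZNF503, with the same NET-family structure, had 1103 and 1171 CPM in the EPN24-Cas13d libraries, against 29 and 39.8 CPM in the EPN24 libraries, and rose by 5.05 (SE 0.15), though it shares exon positions with genes of both strands, ZNF503-AS2 among them. On the log2 scale the 2 genes were at 7.93 and 8.42 with ERCC scaling.

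At the other end of the same list, ZNF644 and ZNF292 fell on the TMM scale. ZNF644, which binds the G9a and GLP histone methyltransferases (ENSG00000122482.22, chromosome 1, 90915298 to 91022272 on the minus strand), had 13 and 6 counts in EPN24-Cas13d, against 125 and 91 counts in EPN24. That is 3.12 and 1.51 CPM in the EPN24-Cas13d libraries, against 55.8 and 43.1 CPM in the EPN24 libraries, with a log2 fold change of -4.38 (approximate SE 0.37) and adjusted p = 8.29e-08 by edgeR's quasi-likelihood test. With ERCC scaling it was at -1.06 and not called. ZNF292, a large protein linked to intellectual disability, had 3 and 6 counts in EPN24-Cas13d, against 48 and 54 counts in EPN24, and a log2 fold change of -4.36 (approximate SE 0.50), against -1.02 with no call with ERCC scaling. Its EPN24-Cas13d libraries were at or near the floor of 3 counts, so the size of its difference is poorly fixed. ZNF451, a SUMO ligase, had 15 and 7.5 counts in EPN24-Cas13d, against 73 and 61 counts in EPN24, with a log2 fold change of -3.43, against -0.09 with ERCC scaling and no call. ZNF292 and ZNF451 share exon positions with a gene on the opposite strand.

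Genes of RNA and ribosome biology spread over nearly the whole range. All 9 listed genes are members, and 5 were higher, 3 lower and 1 not called (55.6% higher and 33.3% lower, beside 59.7% and 20.9% of protein-coding genes above the same minimum and 32.6% and 48.2% of all genes tested). Their median was 1.99, or 8 higher and 0 lower with ERCC scaling. ZNF598 (ENSG00000167962.15, chromosome 16, 1997654 to 2009821 on the minus strand), the ubiquitin ligase that marks collided ribosomes, had 976 and 1026 CPM in the EPN24-Cas13d libraries, against 25.4 and 33.1 CPM in the EPN24 libraries, and rose by a log2 fold change of 5.10 (SE 0.15, adjusted p = 1.82e-12 by the same test). ZNF346, which binds double-stranded RNA, had 155 and 169 CPM in the EPN24-Cas13d libraries, against 18.3 and 14.2 CPM in the EPN24 libraries, and rose by 3.31 (SE 0.20). In contrast ZNF326 (ENSG00000162664.17, chromosome 1, 89995110 to 90035533 on the plus strand), a subunit of the DBIRD complex that couples transcript elongation to splicing, was the most abundant member in EPN24 by CPM. It had 36 and 30 counts in EPN24-Cas13d, against 255 and 327 counts in EPN24, or 8.65 and 7.55 CPM in the EPN24-Cas13d libraries, against 114 and 155 CPM in the EPN24 libraries, and fell by 4.04 on the log2 scale with TMM (SE 0.23, adjusted p = 1.15e-09 by the same test), while it was at -0.67 and not called with ERCC scaling. The other 6 listed genes are named with their values in view: ZNF106 (2.79), ZNF385A (2.33) and ZNF622, a factor of large ribosomal subunit maturation (1.99), were higher on the log2 TMM scale, ZNF593 (0.68) was not called, and ZNF207, a spindle assembly factor (-2.003), and ZNF330 (-1.22) were lower, turning to 1.37 and 2.10 with ERCC scaling.

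**Figure D2:**
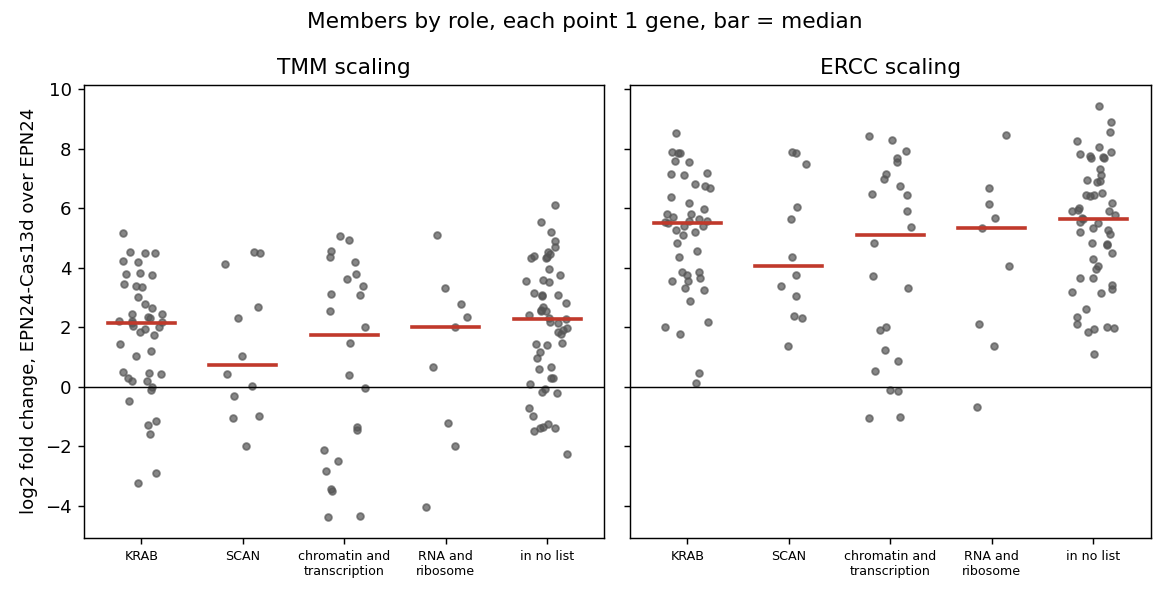
Log2 fold change of EPN24-Cas13d over EPN24 for each member, by role list, with TMM scaling on the left and ERCC scaling on the right, where each point is 1 gene and the bar is the median. With TMM the medians run from 0.72 (SCAN) to 2.28 (members in no list), and with ERCC scaling from 4.07 to 5.64, with 0 members called lower.

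Of the 55 members in none of these lists, 40 were higher, 6 lower and 9 not called (72.7% higher and 10.9% lower, beside 59.7% and 20.9% of protein-coding genes above the same minimum and 32.6% and 48.2% of all genes tested). Their median was 2.28, and with ERCC scaling 54 were higher and 0 lower. Without EPN24-Cas13d replicate 2, 3 of them were lower. ZNF768, which binds MIR repeats in the genome (ENSG00000169957.10, chromosome 16, 30524004 to 30526821 on the minus strand), had 906 and 900.0 CPM in the EPN24-Cas13d libraries, against 37.9 and 49.2 CPM in the EPN24 libraries, and rose by 4.38 on the log2 scale (SE 0.14). ZNF639 had 12 and 16 counts in EPN24-Cas13d, against 36 and 36 counts in EPN24, with a log2 fold change of -2.25 with TMM, turning to 1.10 with no call with ERCC scaling.

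Several paralogs are members together. ZNF592, ZNF687 and ZNF532 encode related proteins that bind the chromatin reader ZMYND8, and all 3 rose. ZNF592 (ENSG00000166716.10, chromosome 15, 84748592 to 84806445 on the plus strand) had 960.3 and 995 CPM in the EPN24-Cas13d libraries, against 31.2 and 33.1 CPM in the EPN24 libraries, a log2 fold change of 4.92 (SE 0.13). ZNF687 had 463 and 442 CPM in the EPN24-Cas13d libraries, against 51.3 and 34.1 CPM in the EPN24 libraries, with 3.40 (SE 0.16), and overlaps PI4KB and ZNF687-AS1 on the other strand. ZNF532 was far less abundant, with 47.8 and 40.8 CPM in the EPN24-Cas13d libraries, against 9.37 and 5.68 CPM in the EPN24 libraries, with 2.54 (SE 0.31).

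ZNF148 and ZNF281, Krüppel-type factors that bind GC-rich promoter boxes, both fell on the TMM scale. ZNF148 had 16 and 16 counts in EPN24-Cas13d, against 53 and 70 counts in EPN24, or 3.85 and 4.03 CPM in the EPN24-Cas13d libraries, against 23.6 and 33.1 CPM in the EPN24 libraries, with a log2 fold change of -2.84 (approximate SE 0.37), and was at 0.53 and not called with ERCC scaling. ZNF281 had 20 and 4 counts in EPN24-Cas13d, against 65 and 80 counts in EPN24, or 4.81 and 1.01 CPM in the EPN24-Cas13d libraries, against 29 and 37.9 CPM in the EPN24 libraries, with a log2 fold change of -3.49 (approximate SE 0.47), and was at -0.14 and not called with ERCC scaling. The EPN24-Cas13d libraries of ZNF281 were several-fold apart but below both EPN24 libraries.

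ZNF362 and ZNF384, related transcription factors of which ZNF384 is known from leukaemia fusions, both rose, with log2 fold changes of 3.61 (SE 0.18) and 1.46 (SE 0.21). ZNF362 had 275 and 274 CPM in the EPN24-Cas13d libraries, against 26.8 and 18 CPM in the EPN24 libraries, and ZNF384 had 86.5 and 81.8 CPM in the EPN24-Cas13d libraries, against 25 and 36.5 CPM in the EPN24 libraries. ZNF423 and ZNF521 both bind the B-cell factor EBF1. ZNF423 had 120.4 and 125 CPM in the EPN24-Cas13d libraries, against 12.9 and 16.1 CPM in the EPN24 libraries, and rose by 3.08 (SE 0.21), while ZNF521 had 18.5 and 19.6 CPM in the EPN24-Cas13d libraries, against 16.9 and 12.3 CPM in the EPN24 libraries, a log2 fold change of 0.38 (approximate SE 0.32) and no call with TMM, against 3.72 and a call with ERCC scaling. The difference between these 2 genes' responses was not tested. ZNF76 had 384 and 360.4 CPM in the EPN24-Cas13d libraries, against 24.5 and 11.8 CPM in the EPN24 libraries, and rose by 4.34 (SE 0.21), while its paralog ZNF143, an activator of snRNA and mRNA promoters, had 79 summed counts, is no member, and was lower with TMM (-1.77), turning to 1.58 and higher with ERCC scaling. ZNF518B, whose protein binds G9a, was at -1.46 with TMM, turning to 1.89 with ERCC scaling, and had 40 and 12 counts in EPN24-Cas13d, against 36 and 40 counts in EPN24. It was at -2.45 without EPN24-Cas13d replicate 1 and at -0.79 with no call without replicate 2. Its paralog ZNF518A had 71.5 summed counts, and neither gene of the ZNF280C and ZNF280D or ZNF33A and ZNF33B pairs, nor any of ZNF354A, ZNF354B and ZNF354C, reached 100.

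Per length, the members' levels spanned a wide range in EPN24-Cas13d and a narrow one in EPN24. As CPM per kb of annotated exon length, the median member was at 10.6 in EPN24-Cas13d and 2.51 in EPN24. ZNF703 was highest in both groups, at 651 ± 21.7 CPM per kb in EPN24-Cas13d and 27.7 ± 3.62 in EPN24 (SD, n = 2 each). It was followed in EPN24-Cas13d by ZNF768 at 381 ± 1.71, ZNF282 at 360.2 ± 0.133 and ZNF503 at 355 ± 15, of which ZNF282 and ZNF503 did not differ beyond their spread, and then by ZNF598 at 213 ± 7.47 and ZNF777 at 199 ± 3.91 CPM per kb. In EPN24 these 5 were at 18.4 ± 3.38, 9.99 ± 1.31, 10.7 ± 2.38, 6.23 ± 1.16 and 10.5 ± 2.01 CPM per kb. The 10 members with the most counts held 44.8% of all member counts in EPN24-Cas13d, against 21.2% for the 10 with the most in EPN24. Olfactory receptor genes, known mainly from the nose, gave a level for genes with little place in this cell line: 361 of them pooled gave 0.0393 CPM per kb in EPN24-Cas13d and 0.752 in EPN24. In EPN24, 56 of the 140 members lay within 3 times that level, 32 of the 90 higher, 12 of the 26 lower and 12 of the 24 not called. Among these 32 were ZNF853 at 1.28 times, ZNF710 at 2.96 times and ZNF532 at 0.851 times the level. The size of their differences rests on a low level in EPN24. The higher members had a median of 625 times the olfactory receptor level in EPN24-Cas13d and 3.58 times in EPN24, the lower members 15.9 and 3.14 times, and those not called 64.9 and 3.04 times. Its part in the differences was not tested.

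Of the sequence features computed, base composition went most closely with the difference. GC content was taken from the longest GENCODE 29 transcript of each gene and was found for 140 of 140 members. Across the members, which share the same 4 libraries, the log2 fold change with TMM had Pearson's r = 0.73 and Spearman's rho = 0.72 with GC content (n = 140 genes, a description). The value was nearly the same with ERCC scaling (r = 0.74, rho = 0.72), and r was 0.76 with the GC share at the last codon position. Across all tested genes with a transcript r was 0.46 (n = 19924), and across protein-coding genes of at least 100 summed counts it was 0.61 (n = 9407). The number of finger motifs, counted as cysteines 2 to 4 residues apart, 12 residues, and histidines 3 to 5 residues apart in the translated longest coding sequence, had r = 0.039 with the log2 fold change. Members had a median of 8 motifs and 0 to 31. ZNF142 with 31 motifs and ZNF646 with 30 were higher (4.53 and 3.50), while ZNF236 with 30 was at -0.07 and not called with TMM, against 3.29 with ERCC scaling. The 6 members with no such motif were ZNF503, ZNF703, ZNF862 (1.92), ZNF839 (1.85), ZNF185 (0.96) and ZNF330, which span higher and lower calls. Exon length in log10 bp had r = -0.34, and it was itself related to GC content (r = -0.52).

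In steps of GC content, of 36 members under 45% GC 6 were higher and 21 lower (median log2 fold change -1.23). Of 26 members from 45% to 50%, 15 were higher and 4 lower (median 1.46), of 25 from 50% to 55%, 22 were higher and 0 lower (median 2.35), and of 53 at 55% or more, 47 were higher and 1 lower (median 3.50). Without EPN24-Cas13d replicate 2 the median of the first step was -0.72, and 1 member of the second and 0 of the last were lower. With ERCC scaling 27, 26, 25 and 53 members of the 4 steps were higher and 0 lower. Protein-coding genes of at least 100 summed counts had medians of -0.90, 0.92, 1.82 and 2.48 in the same steps, with 19.1%, 56.5%, 73.6% and 82.7% higher and 52.8%, 18.8%, 8.79% and 5.53% lower. With ERCC scaling 76.3%, 94.0%, 97.2% and 98.1% of them were higher. All 8 members with the most negative differences had under 45% GC, ZNF124 the highest at 44.2% and ZNF678 the lowest at 34%. The 8 with the largest differences lay between 51.8% (ZNF592) and 65.6% (ZNF598). Exceptions, chosen after their values were seen, were ZNF469, lower at -1.37 (TMM, turning to 1.97 with ERCC scaling) with 66.2% GC, and ZNF106, a zinc finger protein that binds RNA, higher at 2.79 with 43.9% GC. ZNF469 had 50 and 18 counts in EPN24-Cas13d, against 48 and 46 counts in EPN24, and it was not called without EPN24-Cas13d replicate 2.

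**Figure D3:**
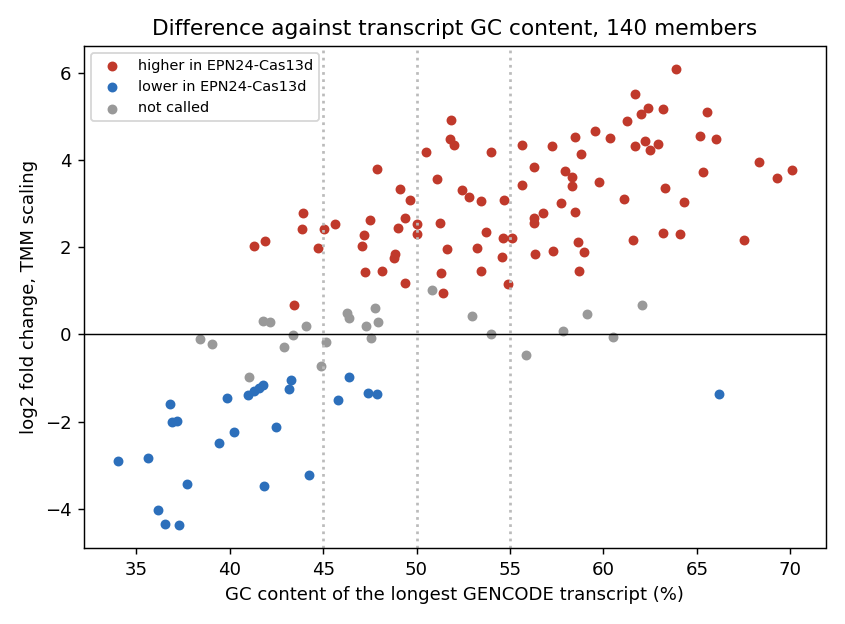
Log2 fold change with TMM scaling (y axis) against the GC content in percent of each member's longest GENCODE transcript (x axis), 1 point a gene, coloured by call, with dotted lines at 45%, 50% and 55%. Calls pass from mostly lower under 45% GC (21 of 36) to mostly higher at 55% or more (47 of 53).

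By chromosome, called shares are read beside 59.7% higher and 20.9% lower for protein-coding genes above the same minimum. Chromosome 16 holds the most members, 23, of which 19 were higher and 1 lower (82.6% and 4.35%), with a median difference of 3.08 on the log2 scale and a median GC content of 58.8%. Of 17 on chromosome 7, 15 were higher and 0 lower (median 2.79, GC 56.7%), and of 11 on chromosome 8, 10 were higher and 0 lower (median 2.30, GC 51.1%). Chromosome 1, with 14 members, had 7 higher and 5 lower (median 1.04, GC 50.7%), and 5 of the 8 most negative members lie there. With ERCC scaling 23, 17, 11 and 9 members of these 4 chromosomes were higher and 0 lower. On chromosome 17, 0 of 6 members were higher and 3 lower (median -0.61, GC 47.0%), and on chromosome 4 all 3 were lower (median -1.36, GC 41.5%), although all 9 of these were higher with ERCC scaling. Without EPN24-Cas13d replicate 2, 0 of the 3 on chromosome 4 were lower (median -0.79), as with the DESeq2 Wald test, and on chromosome 17 the median was -0.24 with 2 lower. The chromosomes' medians did not follow their GC content throughout: chromosome 17 lay below chromosome 3 (median -0.27, GC 44.5%), and chromosome 14 (median 1.99, GC 56.3%) below chromosome 15 (median 2.79, GC 51.6%). These 4 medians rest on few members: 6 on chromosome 17, 8 on chromosome 3, 3 on chromosome 14 and 5 on chromosome 15. Without EPN24 replicate 2 chromosome 14 was at 2.62 and chromosome 15 at 2.58, the reverse order. Without EPN24-Cas13d replicate 2 chromosome 17 (-0.24) and chromosome 3 (-0.23) were nearly level. The lower member of chromosome 16 was ZNF469, lost without EPN24-Cas13d replicate 2, and 2 were lower without EPN24 replicate 2.

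**Figure D4:**
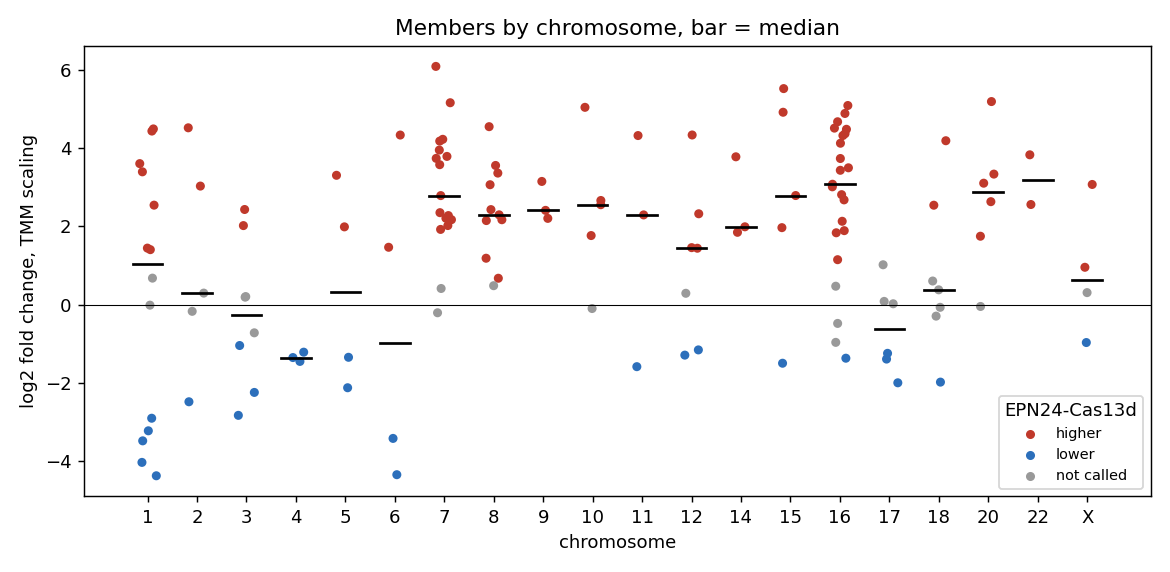
Log2 fold change with TMM scaling (y axis) of each member by chromosome (x axis), 1 point a gene coloured by call, bars marking medians. Chromosomes 16 and 7 hold 19 and 15 higher members, while chromosome 1 holds 5 lower ones.

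Of 247 ZNF genes on chromosome 19 chosen by the same symbol rule, 54 reached 100 summed counts. With TMM 37 of these were higher, 3 lower and 14 not called, with a median difference of 1.87 on the log2 scale. That is 68.5% higher and 5.56% lower, beside 59.7% and 20.9% of protein-coding genes above the same minimum. With ERCC scaling 52 were higher and 0 lower (96.3% and 0%, beside 91.4% and 0.677% of those protein-coding genes). With TMM and without EPN24 replicate 2, 5 of the 54 were lower. Between the groups' means the members' share of gene counts had a ratio of 5.68, against 4.22 for these genes, whose share was 0.331% and 0.337% in EPN24-Cas13d and 0.0819% and 0.0765% in EPN24. Without the minimum, 90 of 222 tested ZNF genes off chromosome 19 were higher and 94 lower with TMM (40.5% and 42.3%, median -0.20), against 39 and 109 of 187 on chromosome 19 (20.9% and 58.3%, median -2.26). With ERCC scaling 149 of the 222 were higher and 6 lower, against 80 and 4 of the 187. Of all protein-coding genes tested, 37.0% were higher and 42.9% lower with TMM (median -0.40), and 65.7% and 1.92% with ERCC scaling. The difference between the ZNF genes on and off chromosome 19 was not tested. The members' median GC content was 51.5%, against 49.6% for the 54 genes of chromosome 19. The relation of the difference to GC content had r = 0.73 there too (n = 54 genes).

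All 21 listed genes of the machinery that KRAB proteins recruit were tested. Of these 12 were higher and 9 lower (57.1% and 42.9%, beside 59.7% and 20.9% of protein-coding genes above the same minimum and 32.6% and 48.2% of all genes tested), and with ERCC scaling 16 were higher and 0 lower (median log2 fold change 1.63, or 4.97 with ERCC scaling). The genes named from this list were chosen after their values were seen. TRIM28, the corepressor itself, had 2155 and 2216 CPM in the EPN24-Cas13d libraries, against 87.4 and 62.5 CPM in the EPN24 libraries, and rose by 4.86 (SE 0.14). SETDB1, the methyltransferase it recruits, had 187 and 160.1 CPM in the EPN24-Cas13d libraries, against 42.8 and 54.9 CPM in the EPN24 libraries, and rose by 1.83 (SE 0.17). SUV39H1, another H3K9 methyltransferase, was at 3.94. Of the heterochromatin proteins that read this mark, CBX5 was higher (2.52), while CBX1 (-0.67) and CBX3 (-2.86) were lower with TMM, at 2.69 and 0.49 with ERCC scaling, where CBX3 was not called. The chromatin remodellers ATRX (-3.52) and SMARCAD1 (-4.09) were lower with TMM and not called with ERCC scaling, at -0.17 and -0.75.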

How the data were processed

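RNA of 4 supernatant libraries was analysed, 2 of EPN24-Cas13d and 2 of EPN24, grouped by their titles. The authors deposited expected counts per gene, some of them not whole, with no normalization. Per the submitters' processing notes, STAR 2.7.10a, featureCounts 2.0.1 and DESeq2 1.36.0 were used, with FastQC 0.11.9, Trim Galore 0.6.7 and build GRCh38. Annotation release, strand and multi-mapping settings were not given in the sources used here, nor were the size factors of the comparison table. Per the labels' protocols, libraries had 17 PCR cycles and 150-nt read pairs, without mention of molecular identifiers, so counting floors cover counting error only. The authors also deposited a comparison table with a mean normalized count (signal), log2 fold changes and errors, a Wald score and p-values. Symbols and gene types came from that table, and exon lengths (bp) and positions from the deposited counts.

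5 of 61640 lines in the deposited counts, pieces of broken rows, were left out; 61543 genes and 92 ERCC transcripts remained. After rounding, genes were tested with edgeR 4.0.16 under R 4.3.3 (filterByExpr, TMM, robust quasi-likelihood, Benjamini-Hochberg, adjusted p of 0.05). SE values are approximate, the size of the log2 fold change divided by the root of its F statistic. ERCC scaling used ERCC totals as library sizes. The test was tried on simulated data with 200 genes changed, equally up and down, so that trial does not cover data in which most genes differ. Alternatives included counts halved (as if both mates of a pair had been counted), DESeq2 1.42.0 and limma-voom 3.58.1. GC content, coding sequence and finger motifs came from GENCODE 29 transcripts of the same gene ID. Of the members, 60 had a non-whole value, and 70 share exon positions with another gene, 52 with one on the other strand, so their reads may be split or mixed. One further marker list is not reported here.

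Members and lists were chosen with earlier results of these data known. Genes named by rule are the 8 largest and 8 most negative called log2 fold changes with no overlap and a mean of at least 5 CPM, the 6 highest by CPM per kb, the 2 most counted of each zinc finger list, all paralog members, the 2 smallest differences, and those next to the minimum.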

Additional observations from a re-analysis of the deposited data

How the results depend on the processing

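The count of 90 higher members ranged from 82 to 131 over all settings tried, and leaving out 1 library gave 87 to 92. The count of 26 lower members was 0 with ERCC totals, 13 with the DESeq2 Wald test and 16 to 27 with 1 library left out, the lowest without EPN24-Cas13d replicate 2. It was 7 for the members of at least 200 summed counts and 94 for all 222 tested genes of the symbol rule. The members' median log2 fold change of 2.08 was 5.45 with ERCC totals, 2.44 with no filter, 1.32 with at least 10 counts and 10 CPM (133 members tested), 2.24 with the DESeq2 Wald test, 1.67 with counts halved, 1.90 to 2.18 with 1 library left out, 2.64 at 200 summed counts and -0.20 with no minimum. With the replicate number as a block, 89 members were higher and 25 lower, and no named gene changed its call. The same-numbered libraries' deviations from their group means had a correlation of -0.0041, and the labels give no shared source. This correlation is a single value from 2 libraries per group with no reference value. It cannot show whether same-numbered libraries shared a source.

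Among named genes the sign turned, on the log2 scale, with ERCC totals for ZNF124 0.12, ZNF148 0.53, ZNF26 2.02, ZNF436 3.32, ZNF518B 1.89, ZNF639 1.10, ZNF678 0.47. The others that turned were uncalled and close to 0: with counts halved, ZNF232 -0.37, ZNF521 -0.033; without EPN24-Cas13d replicate 1, ZNF232 -0.11, ZNF436 0.046; without EPN24 replicate 1, ZNF232 -0.35, ZNF436 0.24; with no filter, ZNF436 0.35; with the DESeq2 Wald test, ZNF436 0.16; with limma-voom, ZNF436 0.0029; with the replicate block, ZNF436 0.012; without EPN24-Cas13d replicate 2, ZNF436 0.062; with at least 10 counts and 10 CPM, ZNF521 -0.48. With 1 library left out, ZNF232 lay between -0.35 and 0.26 and ZNF436 between -0.39 and 0.24. The lower call of ZNF26 was lost with no filter, the DESeq2 Wald test and limma-voom, and that of ZNF518B with the DESeq2 Wald test, and with ERCC totals 5 more named genes kept a negative sign without a call. The cause of these changes was not tested.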
